A study of Mus musculus with 12 samples.

Results

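The hepatokines described here are hormones and plasma proteins that the liver secretes: Fgf21, Angptl4, Angptl6, Angptl8, Gdf15, Lect2, Fetub and Ahsg. They were taken by gene symbol from the platform annotation, with the probe set of highest mean for each gene. Of the 8 genes, 6 had a probe set of their own among the 22180 genes tested, and each of the 6 had 1 such probe set. The only probe set listed for Angptl6 also carried the symbol Shfl, so that it could be given to neither gene, and no probe set was listed for Gdf15. Angptl6 and Gdf15 were therefore not analysed here. In GRCm38.p6 (RefSeq) the 6 genes lie at chr7:45613890-45615490 (Fgf21), chr17:33774900-33781575 (Angptl4), chr9:21835510-21837347 (Angptl8), chr13:56529734-56548559 (Lect2), chr16:22918382-22939768 (Fetub) and chr16:22892015-22899451 (Ahsg).

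RNA came from liver of male C57BL6 mice, and 1 Affymetrix array was run for each of 12 samples. All mice entered at 6 weeks of age, ate their diet freely for 12 weeks and were killed at 18 weeks. The 4 groups of 3 biological replicates received a low-fat diet with MSX, a high-fat diet with MSX, a low-fat diet alone (low-fat control) or a high-fat diet alone (high-fat control). Fat gave 10% of the energy in the low-fat diets and 45% in the high-fat diets, and MSX, a phenol-enriched extract of maple syrup, was mixed into the food at 0.5% by weight. Deposited values were on the log2 scale, with array medians between 4.68 and 4.75. Over its 9 measured hepatocyte markers, such as albumin, each array had a mean log2 level between 12.43 and 12.56. A mean log2 level between 4.41 and 4.90 was found for the 8 measured adipocyte markers. In a piece of liver, fewer cells of one type and less RNA per cell cannot be told apart.

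FGF21 is a hormone of fasting and nutrient stress that acts through an FGF receptor and the co-receptor beta-klotho. Its gene is induced in mouse liver by the fatty acid receptor PPAR alpha in fasting and by the transcription factor ATF4 under amino acid shortage or endoplasmic reticulum stress. ANGPTL4 and ANGPTL8 are angiopoietin-like proteins that restrain lipoprotein lipase and so steer triglyceride between tissues. ANGPTL4 is raised by fasting and ANGPTL8 by feeding and insulin. LECT2 is a chemotactic protein of hepatocytes, while the fetuins AHSG (fetuin-A) and FETUB (fetuin-B) are abundant plasma glycoproteins, the first an inhibitor of calcification and of the insulin receptor and the other an inhibitor of metalloproteases of the meprin and ovastacin type.

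The promoter windows of Fgf21 and Angptl8 are shown because these were the members whose levels moved most between groups. RefSeq windows (GRCm38.p6) from 250 bases before to 50 bases after a start were found for 7 of the 8 genes, and Angptl4 was the one without. The Fgf21 window lies on the minus strand at chr7:45615441-45615740 and the Angptl8 window on the plus strand at chr9:21835260-21835559. In both, capitals mark TGATGCAAT (the composite site of C/EBP and ATF factors), CACGTG (the E-box), AGGTCA (a nuclear receptor half-site) and TATAAA, each searched on both strands.
Fgf21: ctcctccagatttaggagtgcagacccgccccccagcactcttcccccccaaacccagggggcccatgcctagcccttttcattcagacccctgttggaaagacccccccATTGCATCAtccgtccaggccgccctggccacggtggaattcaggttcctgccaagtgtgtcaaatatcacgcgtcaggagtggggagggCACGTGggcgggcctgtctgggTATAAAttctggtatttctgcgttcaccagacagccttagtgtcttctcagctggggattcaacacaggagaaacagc
Angptl8: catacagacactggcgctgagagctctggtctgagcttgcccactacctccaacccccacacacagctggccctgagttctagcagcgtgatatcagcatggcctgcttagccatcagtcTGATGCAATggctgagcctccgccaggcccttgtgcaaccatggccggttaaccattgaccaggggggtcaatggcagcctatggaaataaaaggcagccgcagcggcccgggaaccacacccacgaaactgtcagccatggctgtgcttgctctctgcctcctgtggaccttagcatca
The motif TGATGCAAT stood at −140 to −132 from the Fgf21 start, as its reverse complement, and at −130 to −122 from the Angptl8 start. It occurred in 0.192% of all 32851 windows of this length. The Fgf21 window also held CACGTG at −50 to −45, which 7.15% of windows held, and TATAAA at −28 to −23, which 13.6% held. AGGTCA was in neither of these windows and in 16.3% of all windows, and the tandem DR1 form of it, with 1 base between the copies, was in none of the member windows and in 0.0396% of all. Only exact matches within the windows were counted, so that variant or more distant sites were not looked for. These matches are descriptions of letters in a window.

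Fgf21 was the one hepatokine that passed the test, and its arrays were lower with extract than without on both diets. On the low-fat diet Fgf21 read 6.09, 6.43 and 5.55 on the log2 scale in the MSX arrays, against 7.49, 7.04 and 8.06 in the control arrays. On the high-fat diet Fgf21 read 6.58, 6.30 and 6.65 in the MSX arrays, against 7.65, 7.11 and 6.98 in the control arrays. The highest of the 6 MSX arrays, at 6.65, lay below the lowest of the 6 control arrays, at 6.98, so that the arrays with and without extract did not overlap. Of all genes, 0.455% had every MSX array below every control array. Within a diet, the share of genes with all 3 MSX arrays below all 3 control arrays was 6.73% on the low-fat and 5.51% on the high-fat diet.

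With the extract on the low-fat diet log2 Fgf21 fell by 1.51 (SE 0.27), with an adjusted p of 0.0492 by limma, to 0.351 times the control level. The group levels were 6.02 ± 0.44 with extract and 7.53 ± 0.51 without (SD, n = 3 each). It was 1 of 6 members past an adjusted p of 0.05 there, a threshold that 0.158% of all genes passed in either direction and 0.0947% passed downward. The call was close to the threshold and was lost without each one of the 6 arrays compared (adjusted p between 0.055 and 0.172). It was also lost without high-fat control replicate 2 or 3 or any 1 of the 3 high-fat MSX arrays, which enter the shared estimate of spread. The call was lost too with each array centred on its median (adjusted p = 0.0586), with the mean of a gene's probe sets (0.0503), with all probe sets tested (0.201), with the 2 groups fitted alone (0.204) and with the replicate number as a block (0.107).

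On the high-fat diet the log2 fold change of Fgf21 with extract was −0.74 (SE 0.27, adjusted p = 0.641), or 0.6003 times the control level. Levels averaged 6.51 ± 0.19 with extract and 7.24 ± 0.35 without (SD, n = 3 each). None of the 6 members passed the threshold there, against 0.0361% of all genes, while 2 members, Fgf21 and Angptl8, had an unadjusted p under 0.05, as did 6.99% of all genes. The extract effect was not shown to differ between diets. The high-fat minus the low-fat extract effect was 0.78 (95% interval −0.04 to 1.59, adjusted p = 0.955).

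Averaged over both diets, log2 Fgf21 fell by 1.12 with extract (SE 0.19), with an adjusted p of 0.023, to 0.459 times the control level. It was 1 of 6 members called in this comparison, against 0.261% of all genes and 0.144% downward. The call was lost without low-fat control replicate 1, low-fat MSX replicate 1, high-fat control replicate 1 or high-fat MSX replicate 1 or 2 (adjusted p between 0.0527 and 0.0727), with all probe sets tested (0.11) and with the replicate number as a block (0.0622). The direction was downward in each of these.

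No diet difference of Fgf21 passed the test. Without extract the high-fat minus the low-fat level was −0.29 (95% interval −0.86 to 0.29, adjusted p = 0.896), and the groups overlapped. With extract the same difference was 0.49 (95% interval −0.09 to 1.06, adjusted p = 0.999), again with overlapping arrays. From low to high the group means ran low-fat MSX, high-fat MSX, high-fat control and low-fat control. The 2 MSX groups overlapped each other, as did the 2 control groups, and the step between high-fat MSX and high-fat control was the one without overlap between neighbours.

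**Figure D1:**
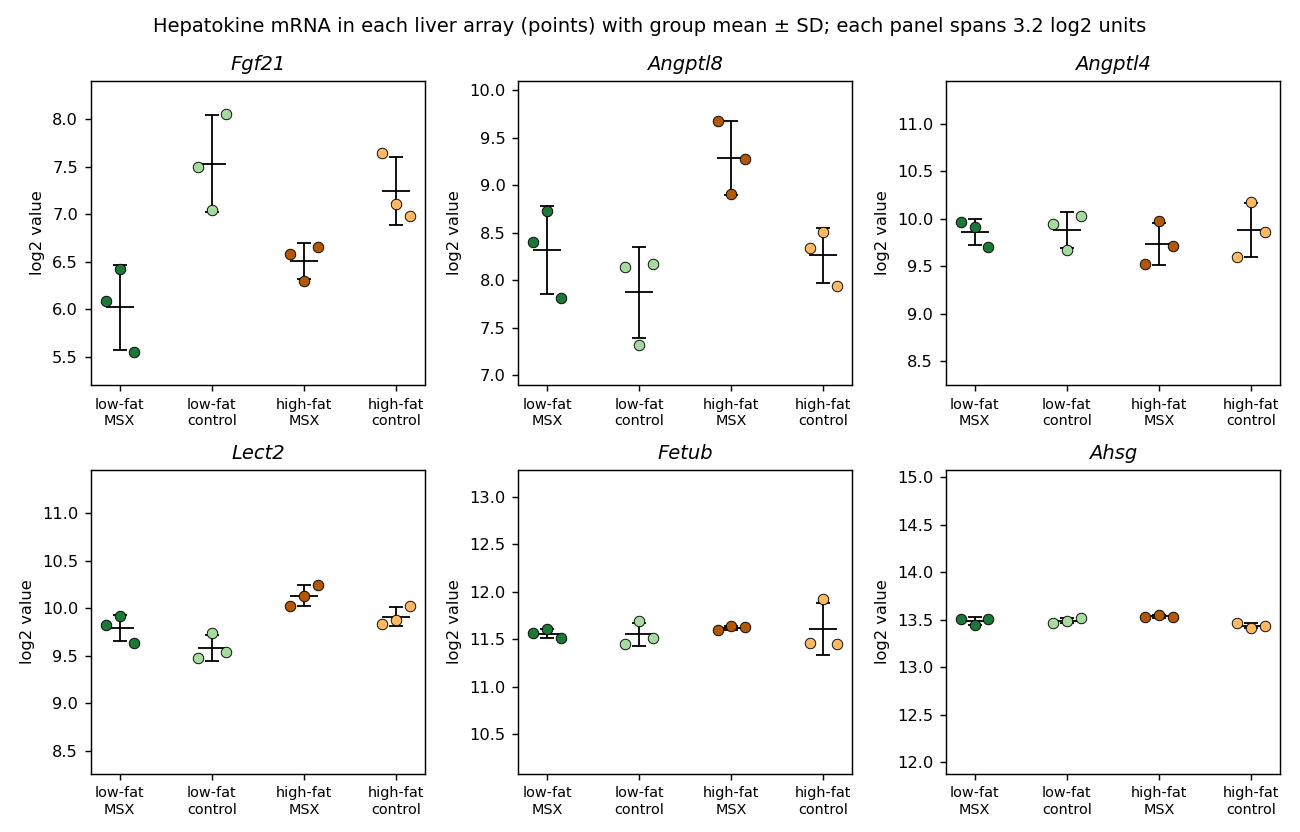
Log2 value of the 6 measured hepatokines in each of the 12 arrays (points, coloured by group) with the group mean and SD (bars, n = 3), each panel spanning the same height. The 6 MSX arrays of Fgf21 lie between 5.55 and 6.65, below all 6 control arrays, and Angptl8 is highest in the high-fat MSX arrays, between 8.91 and 9.68.

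Angptl8, the feeding-induced inhibitor of lipoprotein lipase, lay highest where the high-fat diet and the extract came together, and no difference of it passed the test. On the high-fat diet Angptl8 read 9.68, 8.91 and 9.28 on the log2 scale in the MSX arrays, against 8.34, 8.51 and 7.94 in the control arrays. Each MSX array there was above each control array, which held upward for 6.7% of all genes. The log2 fold change was 1.02 (SE 0.28, 95% interval 0.42 to 1.62), a 2.03-fold level, with an adjusted p of 0.478 by limma.

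On the low-fat diet Angptl8 read 8.40, 8.73 and 7.82 in the MSX arrays, against 8.14, 7.32 and 8.17 in the control arrays. These groups overlapped, and the log2 fold change was 0.44 (95% interval −0.16 to 1.04, adjusted p = 0.73). The average extract effect on Angptl8 was 0.73 (SE 0.20, adjusted p = 0.19) and the difference between its extract effects 0.58 (95% interval −0.27 to 1.43, adjusted p = 0.965).

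Between diets, the high-fat minus the low-fat level of Angptl8 was 0.97 with extract (SE 0.28, adjusted p = 0.977), where the groups did not overlap, and 0.39 without extract (SE 0.28, adjusted p = 0.851), where they did. No gene at all passed the threshold between diets with extract by limma (0%), while 4.56% had an unadjusted p under 0.05 and 4.68% lay without overlap upward. Averaged over extract and control, the diet effect on Angptl8 was 0.68 (95% interval 0.26 to 1.11, adjusted p = 0.576). The order from low to high was low-fat control, high-fat control, low-fat MSX and high-fat MSX, and of the neighbours only low-fat MSX and high-fat MSX did not overlap.

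**Figure D2:**
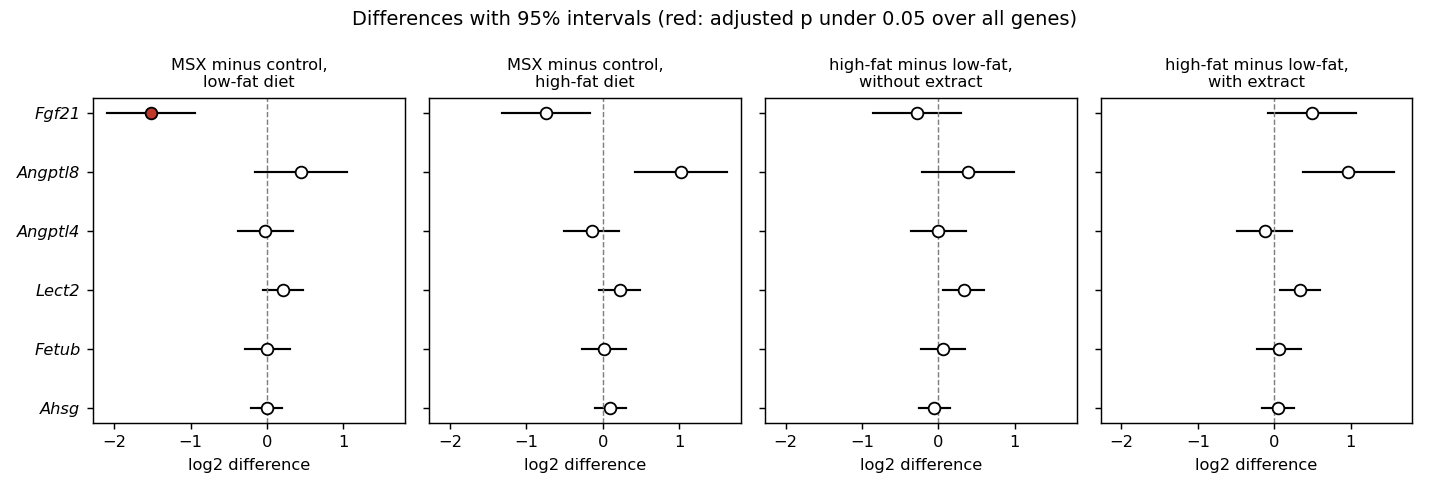
Log2 differences of the 6 hepatokines (points) with 95% intervals from the fit over all genes (bars) in 4 comparisons; red marks an adjusted p under 0.05. The Fgf21 difference of −1.51 on the low-fat diet is the one marked, and the intervals of Angptl4, Fetub and Ahsg include 0 in all 4.

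Angptl4, which blocks lipoprotein lipase during fasting and is itself a target of PPAR alpha, showed no difference beyond its spread. On the low-fat diet Angptl4 read 9.97, 9.92 and 9.70 on the log2 scale in the MSX arrays, against 9.94, 9.67 and 10.03 in the control arrays. The log2 fold change there was −0.02 (95% interval −0.38 to 0.34, adjusted p = 0.99), an interval that holds falls of no more than 0.38. On the high-fat diet Angptl4 read 9.53, 9.97 and 9.71 in the MSX arrays, against 9.60, 10.17 and 9.86 in the control arrays, with a log2 fold change of −0.14 (95% interval −0.50 to 0.22, adjusted p = 0.932). Angptl4 thus overlapped between MSX and control on both diets. Between diets its differences were −0.00219 without extract and −0.12 with extract, and the groups overlapped in both.

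Lect2, which encodes the chemotactic protein of hepatocytes, is raised by beta-catenin in pericentral liver. It was higher on the high-fat diet in both extract states by a small step that did not pass the test over all genes. With extract Lect2 read 10.03, 10.13 and 10.24 on the log2 scale on the high-fat diet, against 9.82, 9.92 and 9.64 on the low-fat diet. Without extract Lect2 read 9.84, 9.88 and 10.03 on the high-fat diet, against 9.47, 9.74 and 9.54 on the low-fat diet. The high-fat arrays lay above the low-fat arrays within each extract state, a pattern that 4.68% of all genes had with extract and 5.29% had without.

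The high-fat minus the low-fat level of Lect2 was 0.34 with extract (SE 0.12, adjusted p = 0.999) and 0.33 without (SE 0.12, adjusted p = 0.634). Their average was 0.33 (95% interval 0.15 to 0.52), a 1.26-fold level, with an adjusted p of 0.4999 by limma. None of the 6 members passed the threshold between diets without extract or on average, as against 0.018% and 0.0225% of all genes. The extract effect on Lect2 was 0.21 on the low-fat and 0.22 on the high-fat diet (SE 0.12 each, adjusted p = 0.71 and 0.778), with overlapping groups.

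The fetuin genes, which lie 18930 bases apart on chromosome 16 in GRCm38.p6 with 1 annotated gene (Gm30611) between them, had no difference that passed the test. Fetub lay between 11.51 and 11.61 on the log2 scale in the low-fat MSX arrays, against 11.46 to 11.69 in the low-fat control arrays. It lay between 11.60 and 11.64 in the high-fat MSX arrays, against 11.45 to 11.93 in the high-fat control arrays. High-fat control replicate 2, at 11.93, was the highest array, and the groups overlapped in each of the 4 comparisons. Its largest log2 difference among these was 0.06 (95% interval −0.23 to 0.35, adjusted p = 0.999), high-fat over low-fat with extract.

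Ahsg read 13.53, 13.55 and 13.53 on the log2 scale in the high-fat MSX arrays, against 13.46, 13.41 and 13.44 in the high-fat control arrays. These groups did not overlap, as held upward for 6.7% of all genes, and they lay 0.10 apart (95% interval −0.11 to 0.30, adjusted p = 0.902). Between diets the Ahsg groups did not overlap either, in opposite directions. High-fat minus low-fat was 0.05 with extract (adjusted p = 0.999), where 4.68% of all genes lay without overlap upward, and −0.06 without extract (adjusted p = 0.95), where 6.1% did so downward. On the low-fat diet Ahsg read 13.51, 13.45 and 13.50 in the MSX arrays, against 13.47, 13.49 and 13.52 in the control arrays, with a log2 fold change of −0.0048 (95% interval −0.21 to 0.20). The highest value of the whole table was 14.08, so that Ahsg was read near the top of the scale, and how far the arrays can resolve a difference there was not tested.

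Genes around FGF21 were read beside it. Of 15 measured genes for FGF21 receptors and regulators, none passed the threshold in any of the 7 comparisons, and their median log2 fold change with extract was 0.16 on the low-fat and 0.15 on the high-fat diet, with medians over all genes of −0.0014 and 0.006. Klb, which encodes beta-klotho, had 0.08 on the low-fat diet (adjusted p = 0.938) and 0.51 on the high-fat diet (95% interval 0.12 to 0.89, adjusted p = 0.639). Bhlhe40, a clock-linked repressor, had 0.53 on the low-fat diet (adjusted p = 0.243), and Ppargc1a, a coactivator of oxidative metabolism, had −0.68 on the high-fat diet (adjusted p = 0.567). Ppara itself had −0.05 and −0.03 on the low-fat and the high-fat diet (95% intervals −0.31 to 0.21 and −0.29 to 0.23); it was chosen here after its values were seen.

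Of 15 measured PPAR alpha targets, 5 fell and 0 rose with extract on the low-fat diet, where 0.0947% of all genes were called downward. The median log2 fold change of the 15 was −0.55. The acyl-CoA thioesterase Acot1 fell by 1.96 (adjusted p = 0.000286) and the fatty acid hydroxylase Cyp4a31 fell by 1.596 (adjusted p = 0.00137). The peroxisomal enzyme Ehhadh fell by 0.91 (adjusted p = 0.0338) and the mitochondrial thioesterase Acot2 fell by 1.49 (adjusted p = 0.0442). On the high-fat diet 0 of the 15 passed and the median was −0.23. Pdk4, the kinase that restrains glucose oxidation, had −1.38 there (adjusted p = 0.1075), and Acot1 had −0.83 (adjusted p = 0.143). Averaged over both diets 5 fell and 0 rose, with a median of −0.40, where 0.144% of all genes were called downward. Fgf21 thus lay below the median of these genes in both diets and Angptl4 above it. These genes were listed with earlier results of these data known, so that their fall is not independent support for that of Fgf21.

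Of 18 measured genes of the integrated stress response, the ATF4 pathway that also induces Fgf21, none passed the threshold in any comparison. Their median log2 fold change with extract was −0.05 on the low-fat and −0.07 on the high-fat diet. Chac1, a glutathione-degrading enzyme, had 0.33 on the low-fat diet (adjusted p = 0.63), and Nupr1, a stress-induced chromatin protein, had −0.55 on the high-fat diet (adjusted p = 0.36).

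Of 15 measured lipogenic genes, 4 rose and 0 fell with extract on the low-fat diet, where 0.0631% of all genes were called upward. The median of the 15 was 0.87. They were set beside Angptl8 as another group induced by feeding and insulin, and were listed with earlier results of these data known. Thrsp, a lipogenic regulator, rose by 1.92 (adjusted p = 0.0492), fatty acid synthase (Fasn) by 1.54 (adjusted p = 0.0127), Insig1, a retention protein of the sterol sensor, by 1.38 (adjusted p = 0.0173) and Tkfc, a kinase of fructose breakdown, by 0.89 (adjusted p = 0.0442). On the high-fat diet 0 of the 15 passed and the median was 0.07. Angptl8 thus had the larger value on the high-fat diet, 1.02 against 0.44, while 15 of the 15 lipogenic genes had the larger log2 fold change on the low-fat diet. Neither Angptl8 nor any lipogenic gene passed the test of the difference of extract effects by limma, in which 0% of all genes were called and 5.09% had an unadjusted p under 0.05. Averaged over both diets 2 of the 15 lipogenic genes rose and 0 fell, where 0.117% of all genes were called upward.

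**Figure D3:**
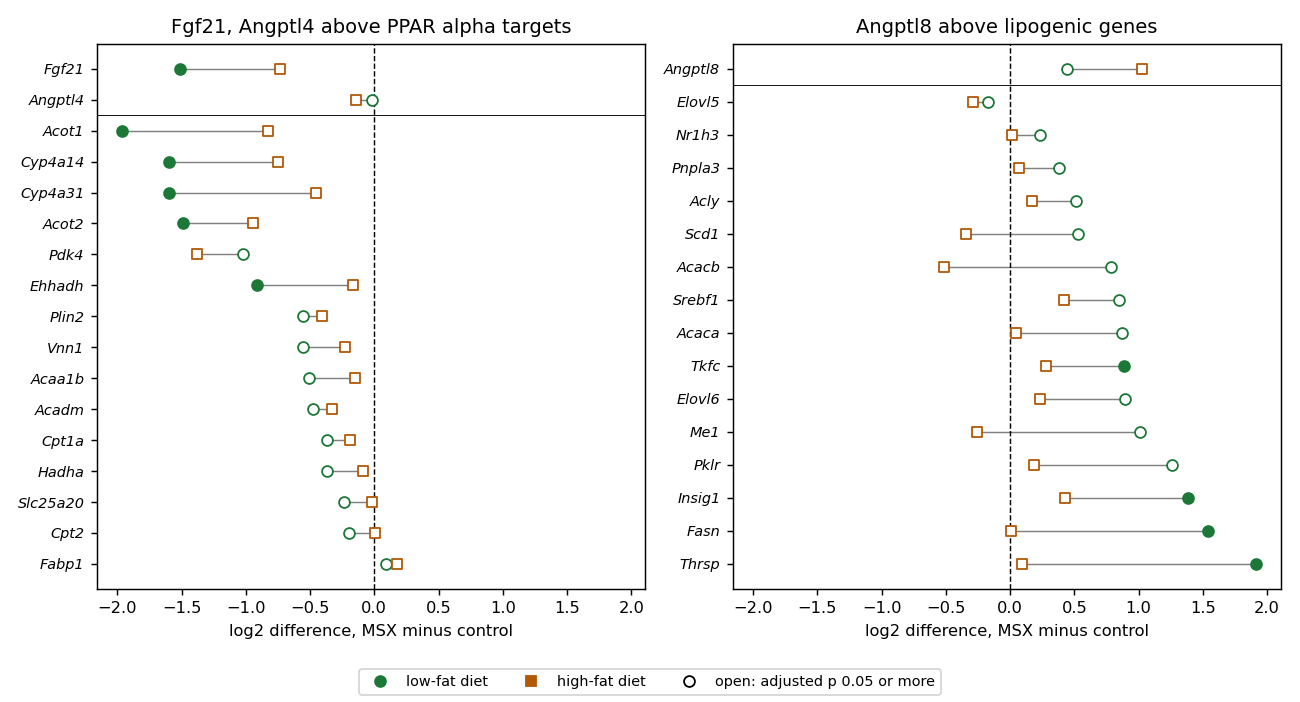
Log2 difference, MSX minus control, on the low-fat diet (green circles) and the high-fat diet (brown squares) for Fgf21 and Angptl4 above 15 PPAR alpha targets (left) and Angptl8 above 15 lipogenic genes (right); filled symbols have an adjusted p under 0.05. Fgf21 lies at −1.51 and −0.74 and Angptl4 lies at −0.02 and −0.14, while Angptl8 lies at 0.44 and 1.02.

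Among 13 measured genes of the lipoprotein lipase system, on which ANGPTL4 and ANGPTL8 act, none passed the threshold in any comparison, and the medians with extract were 0.05 on the low-fat and −0.07 on the high-fat diet. Lipg, endothelial lipase, had 0.60 on the low-fat diet (adjusted p = 0.637), and Vldlr, the very low density lipoprotein receptor, had −0.80 on the high-fat diet (adjusted p = 0.563). Of 12 measured partners of the fetuins, LECT2 and GDF15, none passed in any comparison. Tlr4, the endotoxin receptor, had 0.62 on the low-fat diet with extract (adjusted p = 0.402), and Pirb, an inhibitory immune receptor, had −0.37 on the high-fat diet (adjusted p = 0.641).

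Between diets without extract, where 0.018% of all genes were called, 1 of 25 measured other secreted liver hormones fell and 0 rose. This was Igfbp2, a carrier of insulin-like growth factors, which fell by 1.29 on the high-fat diet (adjusted p = 0.00519), to 9.74 ± 0.08, against 11.03 ± 0.11 on the low-fat diet (SD, n = 3 each). In the average diet effect 1 of the 25 fell and 0 rose, against 0.0225% of all genes called. None of the 25 passed with extract on either diet. Igfbp2 had −0.68 on the low-fat diet with extract (adjusted p = 0.123) and 0.41 on the high-fat diet (adjusted p = 0.639). Inhbe, a hepatocyte activin subunit, had −0.53 on the low-fat diet (adjusted p = 0.635) and Inhba, its relative, 0.39 on the high-fat diet (adjusted p = 0.647).

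For the acute phase, in which AHSG is known to fall, 0 of 17 measured genes passed in any comparison. Their median between diets was 0.36 without extract and 0.05 with extract, where Ahsg itself had −0.06 (adjusted p = 0.95 by limma) and 0.05. With extract their median was 0.16 on the low-fat and −0.15 on the high-fat diet, where Ahsg had −0.0048 and 0.10. In high-fat control replicate 2 they had a median of 0.44 above their 12-array means, against 0.04 and 0.14 in replicates 1 and 3. A link between these genes and Ahsg was not tested. Of 14 pericentral genes of Wnt signalling, set beside Lect2, 1 fell with extract on the low-fat diet: Oat, ornithine aminotransferase, by 0.71 (adjusted p = 0.0492). Of all genes, 0.0947% were called downward there. In the average extract effect 1 of the 14 fell, against 0.144% of all genes. The median of the 14 between diets was 0.06 with extract and 0.09 without, and none of the 14 passed between diets. Of 10 measured p53 targets, which share p53 control with Gdf15, none passed in any comparison, and the cell cycle inhibitor Cdkn1a had −1.06 with extract on the high-fat diet (adjusted p = 0.272).

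Markers of 7 other cell types were set beside these results, and none passed the threshold with extract on the low-fat or the high-fat diet. Of the 8 adipocyte markers 1 passed in the average extract effect, where 0.144% of all genes were called downward. It was Cidec, a lipid droplet gene of adipocytes and of fatty hepatocytes, which fell by 2.001 (adjusted p = 0.0113). The median of the 8 was −0.08 with extract on the low-fat and 0.09 on the high-fat diet, and on average 5 of the 8 lay above 0. The mean level of all 8 lay between 4.41 and 4.60 in low-fat MSX arrays, against 4.61 to 4.80 in low-fat control arrays, and between 4.49 and 4.67 in high-fat MSX arrays, against 4.70 to 4.90 in high-fat control arrays. Without Cidec, an alternative chosen after seeing the data, the mean of the other 7 overlapped on both diets. It then lay between 4.27 and 4.40 in low-fat MSX arrays, against 4.21 to 4.46 in low-fat control arrays, and between 4.31 and 4.55 in high-fat MSX arrays, against 4.27 to 4.35 in high-fat control arrays. These means lay below the array medians of 4.68 to 4.75, and whether markers this dim can show adipocyte content was not tested. The 10 stellate cell and matrix markers had a median of 0.22 with extract on the low-fat and −0.43 on the high-fat diet. High-fat control replicate 1 stood apart in these markers, and the high-fat median was −0.12 without it. The 6 cholangiocyte markers had a median of −0.24 on the high-fat diet with that array and 0.08 without it. Without that array the high-fat log2 fold change of Fgf21 was −0.53 (adjusted p = 0.8975). The 10 markers of macrophages and Kupffer cells had medians of 0.298 on the low-fat and −0.03 on the high-fat diet. The low-fat one ran from 0.16 without low-fat control replicate 1 to 0.51 without low-fat control replicate 3. The high-fat one ran from −0.36 without high-fat control replicate 3 to 0.22 without high-fat control replicate 1. Medians on the low-fat and the high-fat diet were 0.31 and 0.13 for the 8 endothelial markers and 0.0066 and 0.04 for the 9 hepatocyte markers. The low-fat endothelial median ran from 0.16 without low-fat control replicate 2 to 0.52 without low-fat control replicate 3. Leaving out arrays for these marker medians was also chosen after seeing the data. The part of these cells in the levels of the hepatokines was not tested.

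The genes whose pattern was most like that of Fgf21 over the 12 arrays were Acot2, Abhd2, Gpc1, Lamb3 and Rsad2. Likeness was the root mean square difference of log2 values after each gene was centred on its mean, and it was 0.28 for Acot2 and 0.35 to 0.37 for the other four, while Fgf21 itself varied by 0.68 about its mean. On the low-fat diet Abhd2, a lipid hydrolase, fell by 1.25 with extract (adjusted p = 0.0142) and Lamb3, a laminin chain, by 1.03 (adjusted p = 0.0111). Gpc1 had −0.74 (adjusted p = 0.264) and Rsad2 had −0.99 (adjusted p = 0.129) there, and none of the 5 passed the threshold on the high-fat diet. In the average extract effect Acot2 (adjusted p = 0.00925 by limma), Abhd2 (0.00198) and Lamb3 (0.00198) fell, where 0.144% of all genes were called downward. Gpc1 (0.0635) and Rsad2 (0.0872) were not called there. None of the 5 passed the test of the difference of extract effects. The 5 were chosen for following Fgf21 in these arrays, so that these differences are a description. Acot2 averaged 8.78 ± 0.70 with extract and 10.27 ± 0.03 without on the low-fat diet (SD, n = 3 each).

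Those most like Angptl8 were Pcdhb18, Junb, Nr0b2, Tmem39a and Sdr9c7, with differences of 0.31 to 0.38, while Angptl8 varied by 0.62 about its mean. Pcdhb18 was dim, with group means of 3.09 to 3.92, below the array medians of 4.68 to 4.75. None of the 5 passed the threshold with extract on either diet. Nr0b2, the bile acid-induced repressor SHP, averaged 9.20 ± 0.04 in high-fat MSX arrays and 8.55 ± 0.23 in high-fat control arrays (SD, n = 3 each), and its log2 fold change there was 0.64 (adjusted p = 0.695). Angptl4 varied by 0.19 about its mean, and the genes most like it were Ubqln4, Zscan22, Psma2, Nxnl1 and Atat1, with differences of 0.08 to 0.11. Nxnl1 also lay below the array medians, with group means of 4.12 to 4.36. These genes were ranked by the likeness itself among 17455 candidates, and the ranking carries no test.

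**Figure D4:**
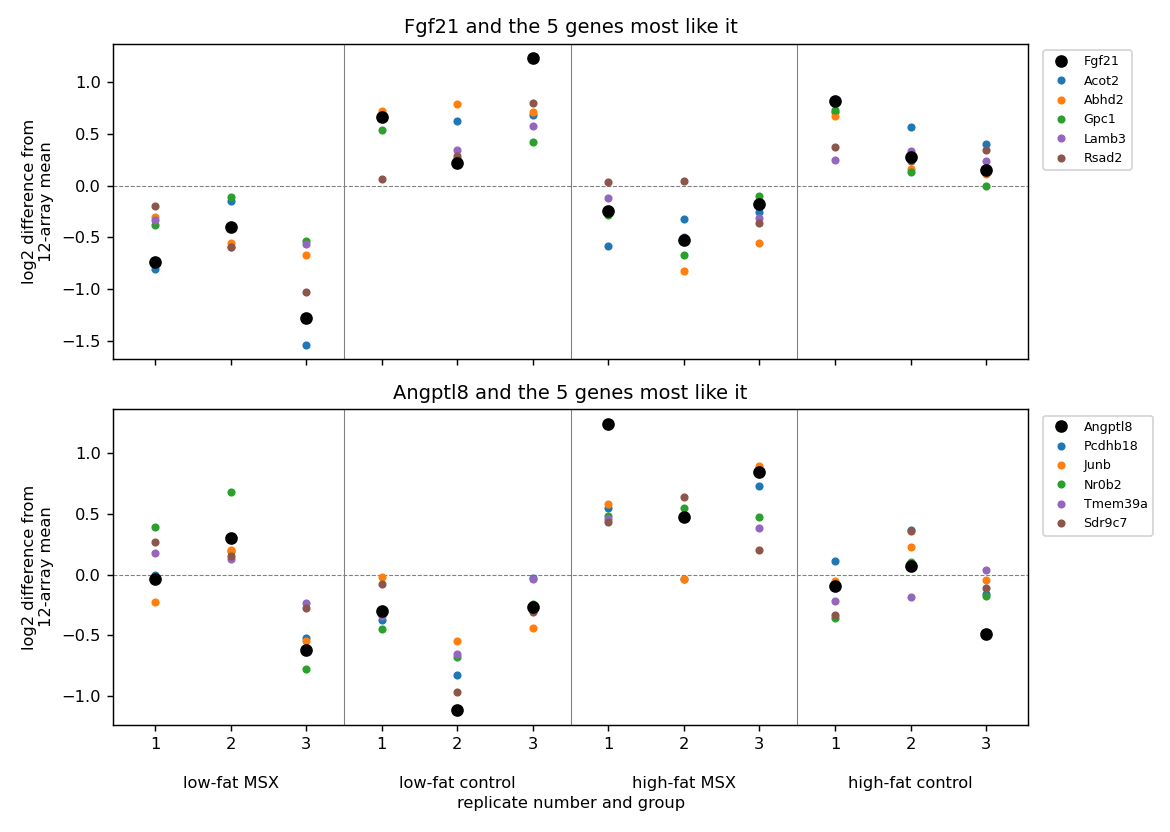
Log2 value less the 12-array mean of the gene (vertical axis) in every array (horizontal axis, replicates within groups) for Fgf21 (top, black) and Angptl8 (bottom, black) with the 5 genes most like each (colours). Fgf21 is below its mean in all 6 MSX arrays and above it in all 6 control arrays, and Angptl8 is above its mean in all 3 high-fat MSX arrays.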

How the data were processed

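Liver RNA, extracted with Trizol per the labels' protocols, was read on 12 Affymetrix arrays, 3 per group. The authors deposited log2 values of 41345 probe sets, which the submitters' processing notes tie to Transcriptome Analysis Console. The version of that tool, the background correction and the normalization were not given in the sources used here. The platform annotation listed 25335 probe sets, of which 23521 had 1 symbol and 1814 several, and 16010 were not listed and stay unnamed. Only probe sets with 1 symbol were used, with that of highest mean per gene, which left 22180 genes. No further normalization was applied.

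Group means were fitted over all 12 arrays with limma 3.58.1 (lmFit, contrasts.fit, eBayes) in R 4.3.3, with 8 residual and 5.18 prior degrees of freedom. In each of 7 comparisons p-values were adjusted over all genes (Benjamini-Hochberg, threshold 0.05). Intervals are 95% intervals of that fit. The fit was tested on simulated data. The number of arrays limits the precision.

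The members and the gene lists were chosen with earlier results of these data known. All members were described. Called genes of a list were named (at most 4 a comparison, lowest p first), or at most 2 of lowest p where none passed. The 5 genes of smallest root mean square difference were named as most like a member, leaving out provisional names. Alternatives were other scalings, a filter on dim probe sets, other probe set rules and fits, a replicate block and leaving out each array.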

Additional observations from a re-analysis of the deposited data

How the results depend on the processing

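The Fgf21 difference on the low-fat diet was negative in all 21 alternatives (log2 −1.76 to −1.25, adjusted p between 0.0272 and 0.204) and stayed past the threshold in 5 of them. The count of members past it there was 0 in place of 1 with arrays centred on their median, the mean of a gene's probe sets, all probe sets tested, only the groups compared, and the replicate number as a block, and 0 to 1 when 1 array was left out. The average extract effect on Fgf21 was negative in all 20 alternatives (−1.25 to −0.99) and past the threshold in 13, with a count of 0 with all probe sets tested and with the replicate block, and 0 to 1 when 1 array was left out. The cause was not tested. The replicate numbers were not taken to pair the samples: same-numbered arrays of different groups correlated between −0.13 and 0.11 in their deviations, and 5 of 12 arrays correlated best with their own number. Between the high-fat MSX and the high-fat control arrays the 3 same-numbered pairs correlated at 0.0798 to 0.112 and the 6 others at −0.0885 to −0.00157, a hint from the data and not from the design. With that block the adjusted p of Fgf21 was 0.107 on the low-fat diet and 0.0622 on average.

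Sign turns were seen in differences that passed no test. With arrays centred, Ahsg had 0.00223 (average diet effect) and 0.021 (extract, low-fat), Angptl4 0.00707 (diet without extract) and 0.00647 (extract, low-fat), and Fetub −0.0024 (difference of extract effects). With array weights, Angptl4 had 0.0259 (diet without extract), Fetub −0.00103 (average extract), −0.0774 (difference) and −0.0397 (extract, high-fat), and Lect2 −0.0663 (difference). Lect2 had −0.0129 with quantile normalization (difference). When 1 array was left out, Ahsg ran from −0.0139 to 0.00463 (average diet) and −0.0177 to 0.0164 (extract, low-fat). Angptl4 ran from −0.137 to 0.00601 (average diet), −0.262 to 0.024 (difference), −0.149 to 0.137 (diet without extract), −0.281 to 0.00462 (extract, high-fat) and −0.124 to 0.0598 (extract, low-fat). Fetub ran from −0.019 to 0.101 (average diet), −0.0315 to 0.088 (average extract), −0.0769 to 0.162 (difference), −0.10003 to 0.139 (diet without extract), −0.06998 to 0.169 (extract, high-fat) and −0.0421 to 0.0742 (extract, low-fat). Fgf21 ran from −0.0216 to 0.233 (average diet) and Lect2 from −0.0638 to 0.0744 (difference).

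Over all genes the count of calls with extract on the low-fat diet was 35, with 6 to 77 over the alternatives, on the high-fat diet 8, with 2 to 28, and on average 58, with 34 to 151. Between diets it was 4 without extract, with 1 to 11, and 5 on average, with 1 to 11, and 0 with extract and for the difference of extract effects, with 0 to 1.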
